A study of Homo sapiens with 6 samples.

Results

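The long arm of chromosome 1 was described from the chromatin loops of HAP1 cells measured by Micro-C. Members were the loops whose anchors both lay between 148 and 247.5 Mb of chromosome 1 (hg19), and 2159 of the 46849 loops of the list met this rule. The first member began at 149190001 and the last ended at 247500000, so the start of the interval held no anchor of a member. The short arm below 121.5 Mb, with 2152 loops, served as the reference on the same chromosome. The remaining 57 loops of chromosome 1 belonged to neither arm's interval: 39 started between the intervals and 18 ended past 247.5 Mb.

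HAP1 is a near-haploid human line derived from a chronic myeloid leukaemia line, and the cells used here were unedited wild-type cells that had been sorted as diploid by a DNA stain. Chromatin was fixed with formaldehyde and then with DSG, and digested with micrococcal nuclease before ligation, so that contacts are read at the scale of nucleosomes. The 6 replicates, which the labels do not describe as separate cultures, form 1 group with no other condition, and the 1 deposited list pools them. Differences between the arms therefore could not be set against the spread between replicates and no test over samples was possible. The intervals given below are at 95%. Those of counts, shares and densities cover counting error only, and those of medians the spread among loops taken as independent. All are too narrow as far as neighbouring loops share contacts and anchors. Bins of 5 Mb are given as a second view of the spread along each arm.

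Loops of this kind join places on the same chromosome that meet more often than their surroundings. Many form where cohesin extrudes chromatin until it is halted at sites bound by CTCF, and others join promoters with enhancers. Chromosome 1 is the largest human chromosome, and its long arm starts with a large block of heterochromatin next to the centromere, in which reads map poorly. The long arm is also among the chromosome arms most often gained in human tumours and in cultured cells. The number of copies of the arm in these cells was not measured here, and its part in the results was not tested. No annotation on hg19 was used, so anchors are given by position and not by gene, and no anchor sequence is shown.

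The long arm had more expected contacts at the same loop span than the short arm. The donut expectation is the number of contacts that the loop caller expects at a loop's pixel from the ring of pixels around it, and it falls steeply with span. Each loop with 5 kb anchors was therefore set against the median of 5 kb loops of like span outside chromosome 1, on a log2 scale on which 0 is that median. The long arm stood at 0.44 (interval 0.41 to 0.47, n = 1881 loops) and the short arm at 0.07 (interval 0.05 to 0.10, n = 1825 loops). The difference of 0.37 corresponds to 1.29 times the expectation. Of the long arm's 5 kb loops, 77.0% lay above the median of like span elsewhere, against 56.7% on the short arm.

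The same step was seen with every surrounding that the caller uses. The lower-left expectation gave 0.44 on the long arm and 0.09 on the short arm, the horizontal one 0.43 and 0.07, and the vertical one 0.43 and 0.08. Loops with 10 kb anchors, which are a separate set of calls, gave 0.41 (interval 0.30 to 0.47, n = 278) and 0.04 (interval -0.01 to 0.11, n = 327). The observed counts differed by less: 0.31 on the long arm (interval 0.28 to 0.36) and 0.09 on the short arm (interval 0.03 to 0.14), a step of 0.23 or 1.17 times.

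On the scale of contacts, the step can be read by class of span. Among 5 kb loops under 100 kb, the median donut expectation was 19.1 contacts on the long arm (interval 18.4 to 20.2) and 15.3 on the short arm (interval 14.6 to 16.0). At 100 to 200 kb it was 11.0 against 8.64, at 200 to 500 kb 6.72 against 5.32, and at 500 kb to 1 Mb 3.75 against 3.01. From 1 Mb the values were 2.38 (interval 2.11 to 2.77, n = 58) and 2.04 (interval 1.64 to 2.42, n = 32), which overlap. Up to 1 Mb the intervals of the arms did not overlap in any class, and the long arm's median was 1.25 to 1.28 times the short arm's. At a single exact span of 50 kb, with no grouping of spans, 53 loops of the long arm had a median expectation of 23.9 contacts (quartiles 18.2 and 28.1) and 58 of the short arm one of 16.2 (quartiles 13.9 and 19.7). Over 7 exact spans from 40 to 300 kb the long arm's median was 1.10 to 1.60 times the short arm's. The lowest was at 200 kb, with 10.9 contacts (quartiles 9.37 and 11.9, 12 loops) against 9.93 (quartiles 9.16 and 11.0, 4 loops). At 40 kb the long arm's median was 1.27 times the short arm's (86 and 79 loops). The quartile ranges of the arms overlapped at 40, 50, 75, 100 and 200 kb, and were apart at 150 and 300 kb.

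**Figure D1:**
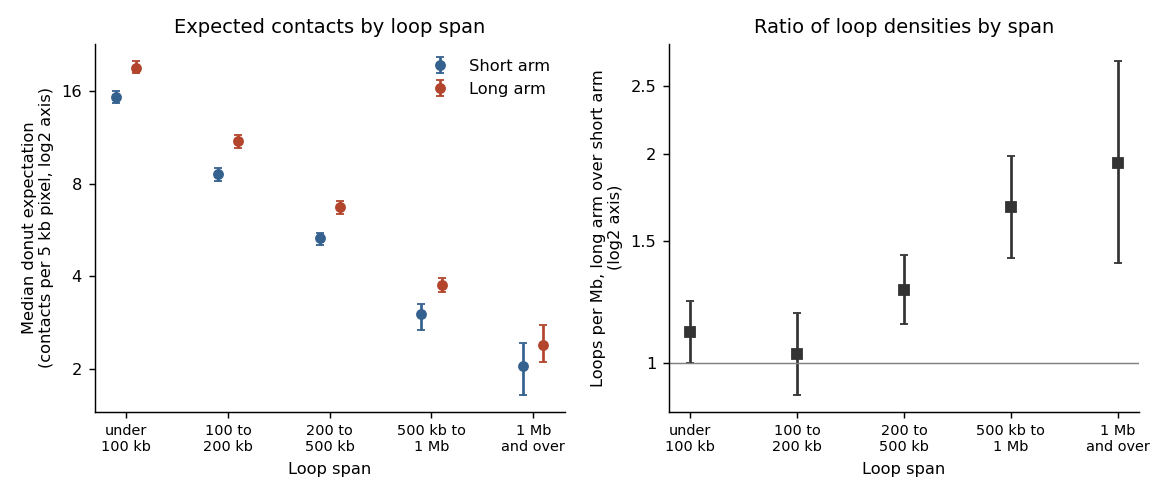
Left, median donut expectation of 5 kb loops (contacts per pixel, log2 axis) by loop span for the short arm (blue) and the long arm (red). Right, ratio of loops per Mb, long arm over short arm (log2 axis), for loops of both anchor widths. Bars are 95% intervals, of the median over loops on the left and for counting error on the right. The long arm's expectation is higher in each of the 5 classes, with overlapping intervals from 1 Mb, and the density ratio is 1.03 at 100 to 200 kb and 1.94 from 1 Mb.

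The step was spread along the arm rather than carried by a single place. In 5 Mb bins counted from 148 Mb, the matched expectation lay above 0 in 19 of 20 bins, with a mean of 0.40 (SD 0.19 between bins) and a range of -0.01 to 0.78. It was above 0.3 in 14 of the 20 bins (70%), against 1 of 24 bins of the short arm and 4.12% of the 534 bins of the other chromosomes that held at least 10 loops of 5 kb. The short arm's bins had a mean of 0.06 (SD 0.16) and a range of -0.32 to 0.35. The arms' bins thus overlapped, but 13 of the 20 long arm bins lay above the highest bin of the short arm.

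The highest bins were the 3 at 153 to 158 Mb (0.78, interval 0.61 to 0.87), 148 to 153 Mb (0.64, interval 0.55 to 0.81) and 178 to 183 Mb (0.58, interval 0.47 to 0.75). In the first of them, the median observed count of loops of both widths was 53 contacts, the same as at 203 to 208 Mb, where the matched expectation was 0.52. At the other end stood the neighbouring bins at 188 to 193 Mb (0.05, interval -0.26 to 0.55) and 193 to 198 Mb (-0.01, interval -0.29 to 0.48), whose wide intervals reach the level of the rest of the arm. The third lowest was 238 to 243 Mb (0.22, interval 0.08 to 0.28). The bins on either side of the low pair returned to the level of the arm, with 0.55 at 183 to 188 Mb and 0.54 at 198 to 203 Mb. With 10 kb loops, 12 of the 17 long arm bins that held at least 10 of them were above 0.3. The same held for 3 of 19 such bins on the short arm and 36 of 376 on other chromosomes. The long arm's bin at 148 to 153 Mb was at -0.23 from 10 loops. Over the 17 long arm bins the values from the 5 kb and the 10 kb loops were only weakly related (Pearson's r = 0.24, Spearman's rho = 0.32, given as a description). The order of single bins is therefore less firm than the level of the arm.

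**Figure D2:**
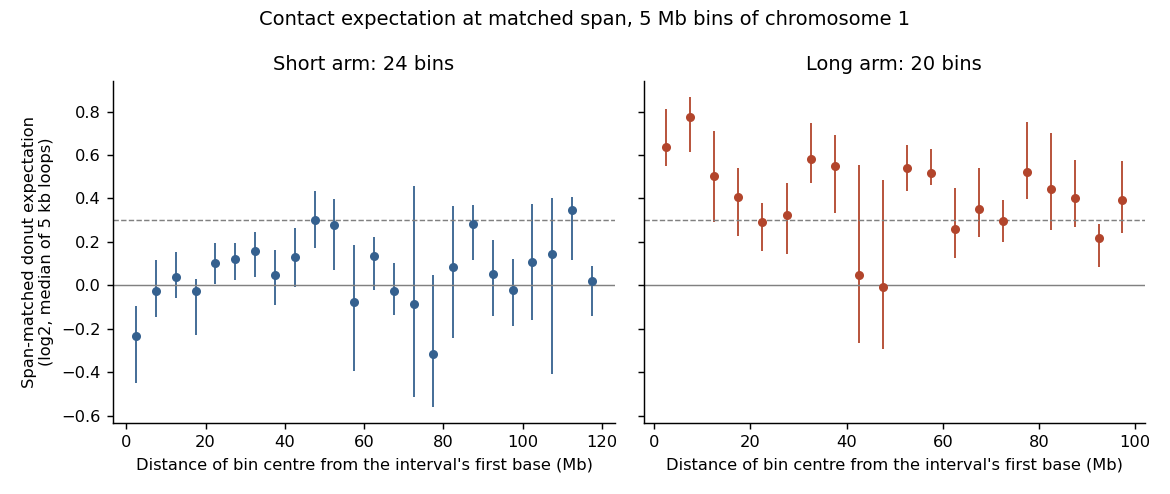
Median span-matched donut expectation (log2) of 5 kb loops in 5 Mb bins of the short arm (blue, 24 bins) and the long arm (red, 20 bins), by distance from the first base of each interval in Mb. Bars are exact 95% intervals of the median, the solid line is the level of other chromosomes and the dashed line is 0.3; 14 long arm bins and 1 short arm bin lie above it, and the low pair of long arm bins lies at 40 to 50 Mb.

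Few other places in the genome had such levels. The long arm's median of 0.44 was above the median of each of the 22 other chromosomes, which ran from -0.18 to 0.43. The highest, 0.43, was that of chromosome 15, which lies inside the long arm's interval of 0.41 to 0.47. The next, of chromosome 17, was 0.10. Of the 534 bins outside chromosome 1, 8 (1.50%) reached the median bin of the long arm (0.40), and 6 of these 8 lay on chromosome 15. The others were 95 to 100 Mb of chromosome 11 (0.64) and 110 to 115 Mb of chromosome 6 (0.43). The stretch of chromosome 15 from 62 to 88 Mb, taken here for scale, stood at 0.95 (interval 0.88 to 1.02). It overlaps the 6 bins of chromosome 15, so its level is not independent of theirs. The stretch is a chosen segment of chromosome 15 and was not drawn at random. The long arm's median lay below that of this stretch and near the 0.43 of the whole of chromosome 15, which contains it. The 38 loops of 5 kb that started before the interval, from 142650001 on, had a median of 0.84 with quartiles of 0.03 and 1.16. The 14 such loops that ended past 247.5 Mb had a median of -0.13 with quartiles of -0.64 and -0.01.

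Loops were denser on the long arm. It carried 21.7 loops per Mb (interval 20.8 to 22.6) over 99.5 Mb, and the short arm 17.7 (interval 17.0 to 18.5) over 121.5 Mb, a ratio of 1.23 (interval 1.15 to 1.30). The stretch of chromosome 15 from 62 to 88 Mb held 26.5 loops per Mb. Loops with 5 kb anchors made up 87.1% of the long arm's loops and 84.8% of the short arm's. The density ratio was 1.26 for 5 kb loops (interval 1.18 to 1.34) and 1.04 for 10 kb loops (interval 0.88 to 1.22), and these intervals overlap.

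Density and matched expectation moved together over bins. Across the 20 long arm bins Pearson's r was 0.69 and Spearman's rho 0.40, and across the 534 bins of other chromosomes they were 0.60 and 0.59, given as a description since both values come from the same loops. Among bins with a matched expectation of 0.2 to 0.4, the 7 of the long arm held 21.5 loops per Mb (interval 20.0 to 23.1) and the 4 of the short arm 21.4 (interval 19.4 to 23.5), a ratio of 1.00. The smallest observed count on either arm was 8 contacts, and the part that the level of contacts plays in the number of loops listed was not tested.

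By bin, density ranged from 9.0 to 35.4 loops per Mb on the long arm (mean 21.7, SD 5.4) and from 7.2 to 27.4 on the short arm (mean 17.8, SD 5.2), so that the bins overlapped widely. The densest bin was 153 to 158 Mb, with 177 loops or 35.4 per Mb (interval 30.4 to 41.0), which was also the bin of highest matched expectation. The next were 198 to 203 Mb with 28.0 and 203 to 208 Mb with 26.2. The poorest was 188 to 193 Mb with 45 loops or 9.0 per Mb (interval 6.6 to 12.0). It was followed by its neighbour at 193 to 198 Mb with 13.2 and by 213 to 218 Mb with 17.6. Density in 16 of the 20 long arm bins was above the median bin of the short arm (18.4 loops per Mb).

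**Figure D3:**
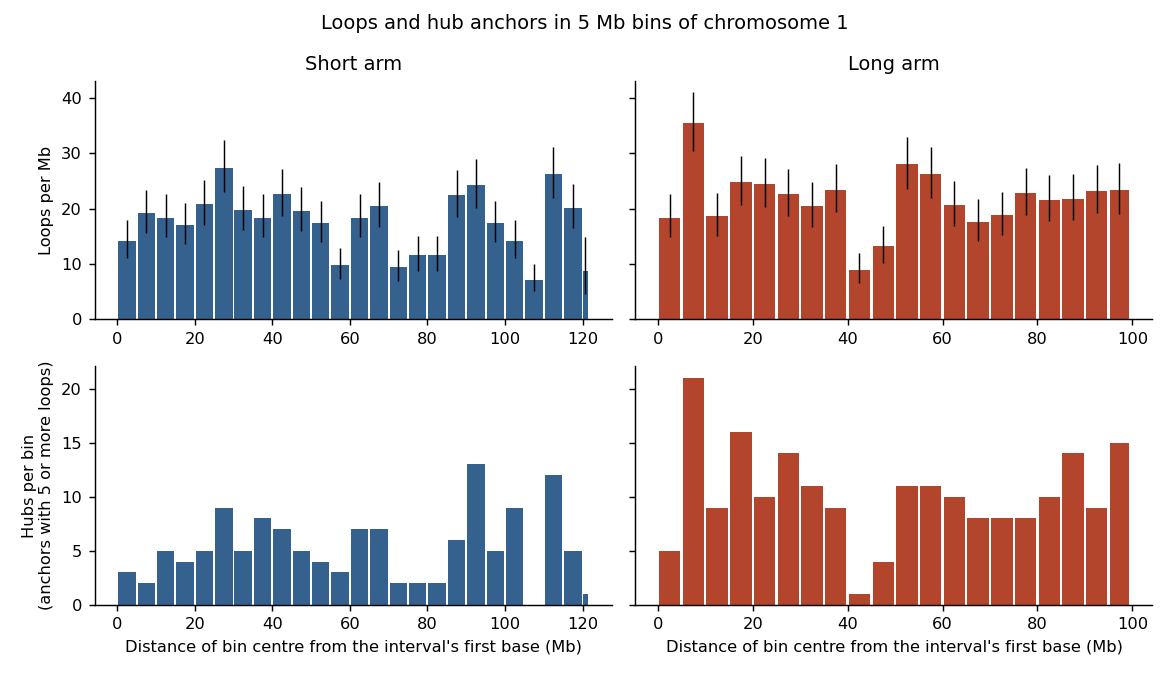
Loops per Mb (top, with exact Poisson 95% intervals) and number of hub anchors, those with at least 5 loops (bottom), in 5 Mb bins by distance in Mb from the first base of the short arm interval (blue) and of the long arm interval (red). On the long arm, 153 to 158 Mb leads with 35.4 loops per Mb and 21 hubs, and 188 to 193 Mb is lowest with 9.0 loops per Mb and 1 hub.

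Between its first and last anchors, the long arm had few gaps. The longest stretch from an anchor to the next was 0.96 Mb (194270001 to 195230000), inside the low pair of bins, and the next was 0.54 Mb (188850001 to 189390000), also there. These were the only 2 such stretches of at least 500 kb on the long arm. The short arm had 8, and 2 of them exceeded 1 Mb. Before the first anchor, the long arm interval held a further 1.19 Mb without one (148000001 to 149190000) and the short arm interval 0.805 Mb (1 to 805000). The median distance from an anchor to the next was 30 kb on both arms.

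**Figure D4:**
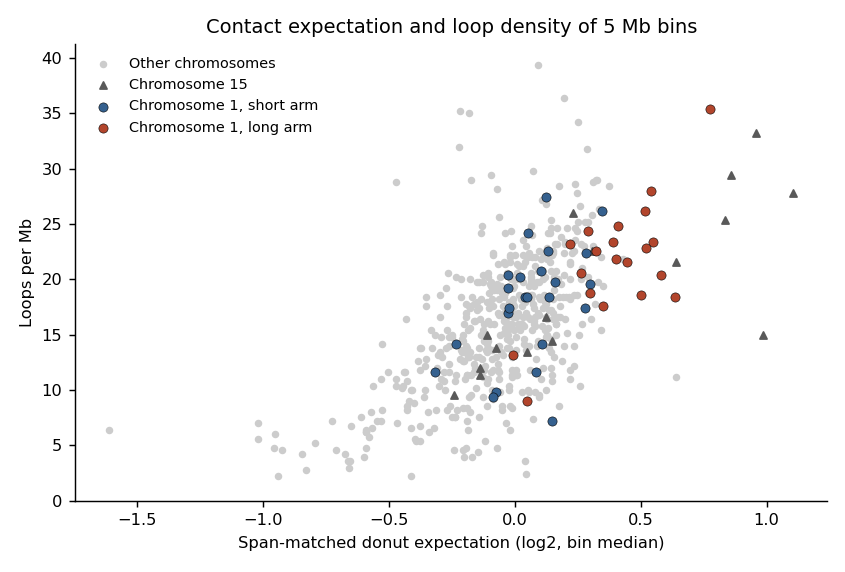
Loops per Mb against the span-matched donut expectation (log2, median of 5 kb loops) in 5 Mb bins: long arm of chromosome 1 (red), short arm (blue), chromosome 15 (dark triangles) and other chromosomes (grey). Of the 20 long arm bins, 13 lie to the right of all short arm bins, and elsewhere 8 bins reach the median long arm bin, 6 of them on chromosome 15.

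Against the short arm, the extra loops of the long arm were mainly those of 200 kb and over. Loops under 100 kb numbered 7.18 per Mb on the long arm and 6.47 on the short arm (ratio 1.11, interval 1.00 to 1.23), and those of 100 to 200 kb 4.00 and 3.88 (ratio 1.03, interval 0.90 to 1.18). At 200 to 500 kb the ratio was 1.27 (interval 1.14 to 1.43), at 500 kb to 1 Mb it was 1.68 (interval 1.42 to 1.99), and from 1 Mb it was 1.94 (interval 1.40 to 2.72). In shares, loops of 500 kb to 1 Mb made up 15.4% of the long arm's loops against 11.2%, and those from 1 Mb 4.49% (97 loops) against 2.83% (61 loops). Outside chromosome 1 the share from 1 Mb was 3.85%. That lies inside the long arm's interval (3.66 to 5.45%) and above the short arm's (2.18 to 3.63%). The median span was 185 kb on the long arm (interval 175 to 205 kb, quartiles 77.5 and 420 kb) and 150 kb on the short arm (interval 140 to 160 kb, quartiles 70 and 340 kb). In the 6 bins of chromosome 15 that reached the long arm's median matched expectation, the median span was 215 to 330 kb.

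Loops of the long arm stood out less from their surroundings. At matched span, the ratio of observed to donut-expected contacts was -0.11 on the log2 scale (interval -0.14 to -0.10), against 0.00 on the short arm (interval -0.02 to 0.03). The difference of -0.12 is 0.92 times. The bin's own matched ratio lay below 0, the level of loops outside chromosome 1, in 17 of the 20 long arm bins. It did so in 11 of 24 bins of the short arm and in 267 of 534 bins of other chromosomes. Among the latter were all 6 bins of chromosome 15 that reached the long arm's median expectation, with matched ratios of -0.26 to -0.13. Without matching, the median ratio was 3.50 (interval 3.38 to 3.61) and 3.54 (interval 3.46 to 3.64). Loops with a ratio under 2.5 were 1.35 times as dense on the long arm as on the short arm (interval 1.19 to 1.53), those of 2.5 to 5 and of 5 to 10 were each 1.22 times as dense, and those of 10 and over were 0.89 times as dense (104 against 142 loops, interval 0.69 to 1.16). Only loops in which the observed count is at least 1.75 times the donut expectation are in the list, so the ratio describes loops that had passed this limit.

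The long arm's loops also took in more pixels. Those merged from 10 or more significant pixels were 1.66 times as dense as on the short arm (321 loops against 236, interval 1.40 to 1.97), and those of a single pixel 1.09 times (interval 0.89 to 1.34). The median was 3 pixels on both arms, with an upper quartile of 7 on the long arm and 6 on the short arm.

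Hub anchors were more frequent on the long arm than on the short arm. Overlapping anchors were merged, and a hub was taken as an anchor with at least 5 loops. The long arm held 204 hubs among 1955 anchors, or 10.4% (interval 9.11 to 11.9%), against 6.59% of the anchors outside chromosome 1 and 6.00% on the short arm (131 of 2183, interval 5.04 to 7.08%). In the 6 bins of chromosome 15 that reached the long arm's median bin, the hub share was 5.63 to 22.7%. It was above 10.4% in all of them but 85 to 90 Mb. Anchors with 8 or more loops made up 1.59% on the long arm (31 anchors), 0.82% on the short arm (18) and 0.77% elsewhere. Those with 10 or more made up 0.51% on the long arm (10 anchors), 0.046% on the short arm (1) and 0.16% elsewhere (68 of 43290). The number of anchors per Mb differed little, 19.6 against 18.0 (ratio 1.09, interval 1.03 to 1.16), and hubs per Mb differed more, 2.05 against 1.08 (ratio 1.90, interval 1.52 to 2.39). The added loops thus came largely at shared anchors: anchors with a single loop made up 50.6% on the long arm and 52.5% on the short arm, those with 2 loops 18.6% and 22.4%, and those with 5 to 7 loops 8.85% and 5.18%.

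The hub share was higher on the long arm also where loop density or contact expectation was alike, a comparison added after the values had been seen. In bins of 17 to 25 loops per Mb it was 10.8% on the long arm (156 hubs in 15 bins, interval 9.21 to 12.5%) and 5.87% on the short arm (88 hubs in 15 bins, interval 4.73 to 7.18%). Mean density in these bins was 21.5 and 19.7 loops per Mb, and the median bin's matched expectation 0.40 and 0.05. In bins with a matched expectation of 0.2 to 0.4 the hub share was 11.1% (74 hubs, interval 8.79 to 13.7%) and 6.55% (27 hubs, interval 4.36 to 9.39%). These intervals overlap.

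Of the long arm's loops, 48.1% touched a hub (1039 loops) against 31.7% on the short arm and 35.0% outside chromosome 1. Loops that joined hub to hub made up 9.82% on the long arm (212 loops, interval 8.60 to 11.2%), 4.69% on the short arm (101 loops, interval 3.84 to 5.67%) and 4.94% outside chromosome 1. Loops between hubs were long, with a median span of 390 kb against 120 kb for loops that touched no hub, and the short arm's were 360 and 115 kb. Their matched donut expectation was 0.61 against 0.34 for loops at no hub, while the short arm's values were 0.41 and 0.04. The step between the arms was therefore present in both classes. All loops of 65 of the 204 hubs (31.9%, interval 25.5 to 38.7%) ran in a single direction, 33 towards higher and 32 towards lower coordinates. The share was 35.1% on the short arm (interval 27.0 to 43.9%) and 30.4% outside chromosome 1, and the arms did not differ beyond counting error.

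Hubs followed density along the arm (Pearson's r = 0.84, Spearman's rho = 0.73 over 20 bins, given as a description since hubs are counted from the same loops). Most lay at 153 to 158 Mb (21 hubs, 14.6% of the bin's anchors), 163 to 168 Mb (16 hubs, 16.0%) and 243 to 247.5 Mb (15 hubs, 18.8%). The fewest were at 188 to 193 Mb (1 hub), 193 to 198 Mb (4) and 148 to 153 Mb (5). At least 10 hubs were present in 11 of the 20 bins. The same held for 2 of 24 short arm bins and 68 of 534 bins of other chromosomes. Only bins that held at least 10 loops of 5 kb were counted. The last bin was near the arm's mean density (23.3 loops per Mb) but had the highest hub share, and 148 to 153 Mb had a high matched expectation (0.64) with few hubs. The longest stretch without a hub ran from 186960001 to 192770000, and the median distance between neighbouring hubs was 260 kb against 461 kb on the short arm.

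Loops linked through shared anchors formed larger groups on the long arm. Groups of 20 or more loops numbered 30 on each arm, but they took in 77.2% of the long arm's loops (1667, interval 75.4 to 79.0%) and 55.2% of the short arm's (1188, interval 53.1 to 57.3%). The largest ran from 153320001 to 159045000 and held 169 loops, with 22 hubs in its 5.725 Mb. The next, from 171400001 to 178700000, held 142 loops over 7.3 Mb, and the third, from 163325001 to 168200000, held 109. The largest group of the short arm held 73 loops over 3.355 Mb.

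The 10 anchors with most loops held 10 or 11 each. At the head by summed contacts was 155050001 to 155060000, in the densest bin, with 11 loops, 10 of them towards lower coordinates. Its loops were short to mid-range, from 35 to 900 kb, and the nearer ones carried the highest counts: 225 contacts at 35 kb (61.7 expected), 132 at 85 kb (32.3 expected) and 205 at 110 kb (86.5 expected, 10 kb anchors). At 900 kb it had 22 contacts against 8.33 expected, again with 10 kb anchors. Of its 11 partners, 7 were hubs themselves.

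A trio of hubs lay close together at the border of the low pair of bins. The anchors 197885001 to 197890000 (11 loops), 198050001 to 198060000 (10 loops) and 198125001 to 198130000 (10 loops) were each joined to both others, with 47 contacts over 165 kb (13.8 expected), 123 over 70 kb (25.3 expected) and 62 over 240 kb (17.5 expected). All 3 also reached the anchor that starts at 197490001, over 390, 560 and 635 kb with 85, 18 and 27 contacts. Although the bin of 193 to 198 Mb had a matched expectation of -0.01 in all, the loops of the first of these hubs, at its upper end, had a median of 1.19.

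Some other hubs reached farther and mostly in a single direction. The anchor at 165040001 to 165050000 sent its 11 loops to lower coordinates, up to 1715 kb away, with 17 to 89 contacts and ratios of observed to expected of 2.06 to 8.43. Among its partners was the hub at 164580001 to 164590000 (10 loops, 8 to lower coordinates), 460 kb away, with 21 contacts against 5.27 expected. At 245310001 to 245320000, near the end of the arm, 10 of 11 loops ran to higher coordinates, up to 1600 kb. Its loop of 850 kb had 106 contacts against 5.60 expected, a ratio of 18.9, and its other 10 loops had 11 to 36 contacts.

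A pair of hubs 1620 kb apart, at 172500001 to 172510000 and 174120001 to 174130000, was joined by 21 contacts (4.80 expected) in a single pixel of 10 kb anchors. They held 10 loops each, to both sides, and shared the partners that start at 173445001, 173830001 and 173990001, which lie between them. From the second, a loop of 2050 kb with 12 contacts (2.48 expected) was the longest of these 10 hubs. The remaining hub of the 10, at 226590001 to 226600000, had 6 loops to higher and 4 to lower coordinates, of which that of 140 kb carried 176 contacts against 57.0 expected.

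**Figure D5:**
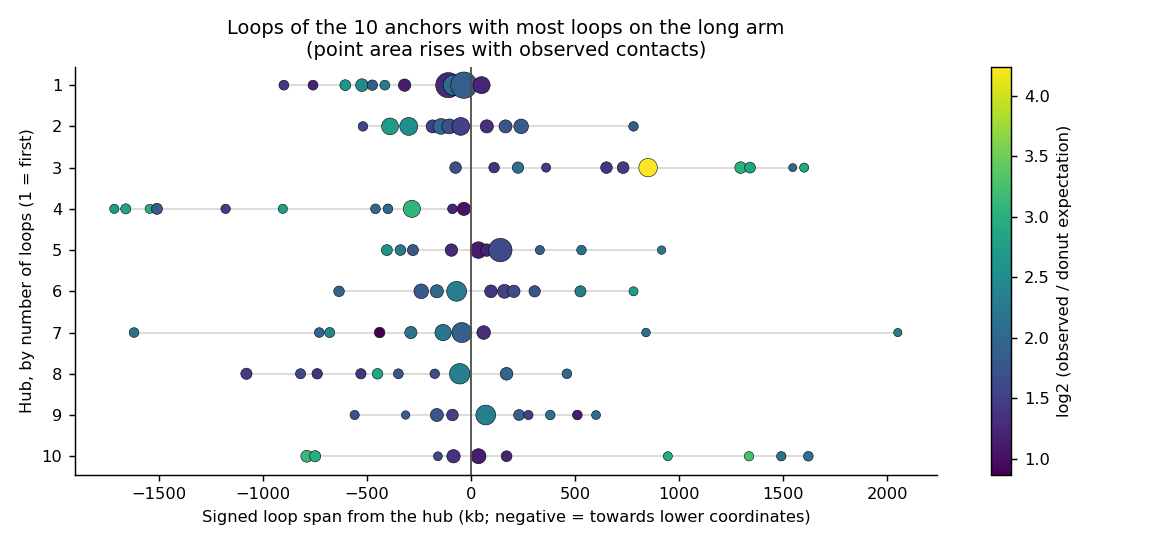
Loops of the 10 anchors with most loops on the long arm. The x axis is the signed span from the hub in kb (negative towards lower coordinates), point area rises with observed contacts and colour gives log2 of observed over donut expectation. The first hub's loops run almost all to lower coordinates, the third's almost all to higher ones with its ratio of 18.9 at 850 kb, and the fourth's all to lower ones.

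The loops with most contacts were short. The first joined 201675001 to 201680000 with 201760001 to 201765000 over 85 kb, by 335 contacts (interval 300.1 to 372.9) against 24.0 expected, from 28 merged pixels. The second, from 156695001 to 156700000 to 156735001 to 156740000, had 334 contacts over 40 kb against 51.5 expected. Its lower anchor, with 5 loops, was also the upper end of the fifth loop by count, from 156655001 to 156660000, again of 40 kb, with 287 contacts against 48.2. A loop of 55 kb from 156355001 to 156360000 to 156410001 to 156415000 had 297 contacts against 32.4 expected. Thus 3 of the 5 lay close together in the bin of highest density. The remaining loop, from 182570001 to 182575000 to 182750001 to 182755000, also had 297 contacts, over 180 kb against 18.7 expected, a ratio of 15.9.

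By ratio, among loops with at least 1 expected contact, the first 2 were neighbours of equal span. They joined 196765001 to 196770000 with 196890001 to 196895000 (103 contacts, 1.30 expected, ratio 79.3) and 196785001 to 196790000 with 196910001 to 196915000 (41 contacts, 1.37 expected, ratio 29.8). Both spanned 125 kb, the second being the first moved by 20 kb, and none of their 4 anchors held another loop. Their expectation was far below that of other loops of 100 to 200 kb on the arm (median 11.0), while the median observed count of those loops was 44. The second loop thus had fewer contacts than that median, and its high ratio rests on its low expectation. The next 3 had expectations of 5.60 to 13.4 contacts: 222635001 to 222640000 with 222805001 to 222810000 (141 contacts, 6.29 expected, ratio 22.4), 203470001 to 203475000 with 203670001 to 203675000 (267 contacts, 13.4 expected, ratio 20.0), and the loop of 850 kb of the hub at 245310001 already given.

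The 5 loops of greatest span reached 2.18 to 2.96 Mb. The first, from 212780001 to 212790000 to 215740001 to 215750000, rested on 9 contacts (interval 4.12 to 17.1) against 1.50 expected, with a donut q-value of 0.262 in the deposited list. Those of 2.415 Mb (229550001 to 229555000 with 231965001 to 231970000) and 2.335 Mb (183585001 to 183590000 with 185920001 to 185925000) differed from the rest of the arm. They had 38 and 34 contacts in a single pixel each, against only 0.0999 and 0.107 expected, where 5 kb loops from 1 Mb on the arm had a median expectation of 2.38. None of their anchors held another loop. The loop of 2.23 Mb (163330001 to 163340000 with 165560001 to 165570000) ended at an anchor with 7 loops and had 20 contacts against 4.28 expected. The loop of 2.18 Mb (237970001 to 237975000 with 240150001 to 240155000) had 20 contacts against 2.72 expected over 11 merged pixels, the broadest support among these 5. In all, 8 of the 2159 loops of the long arm spanned 2 Mb or more, and 3 of the 2152 of the short arm. Outside chromosome 1 it was 219 of 42481 loops, a larger share than on either arm.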

How the data were processed

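Micro-C was measured in 6 replicates of wild-type HAP1 cells, which the deposited loop list pools, so nothing was compared between samples. The submitters' processing notes name BWA and hg19, and the file header names juicer_tools 1.22.01. For caller settings, pooling and library depths, these sources give nothing. Observed contacts were deposited as raw whole-number counts per loop, beside expected contacts on the same scale, q-values, the count of merged pixels and a radius in bp. Analyses used scipy 1.17.1, numpy 2.4.6 and pandas 2.3.3 under Python 3.11.15, and matplotlib 3.10.9 for figures.

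The matching reference was loops outside chromosome 1 with the same anchor width, in groups of neighbouring spans of at least 100 loops. Loops were placed in bins by midpoint, and bins needed at least 10 loops of 5 kb for a matched value. Anchors overlapping by at least 1 bp were merged. Intervals are exact (Poisson for counts, binomial for shares and for order statistics of medians, conditional binomial for ratios of densities). Named anchors were the 10 with most loops (ties by summed counts), named loops the 5 first by count, by ratio (expectation at least 1) and by span, and named bins the 3 highest and lowest of each measure. Functions were tested on simulated data. The interval, measures and bins were chosen with earlier results of these data known.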

Additional observations from a re-analysis of the deposited data

How the results depend on the processing

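Of 33 alternative values for 6 results, 28 lay inside the interval of the main value, 5 left it and 0 reversed. The density ratio (1.23) was 1.04 with 10 kb loops only and 1.00 in bins of like expectation. The step in matched expectation (0.37) was 0.23 with observed counts. The ratio of hub shares (1.74) was 2.23 with 5 kb loops only. The difference in median span (35 kb) was 85 kb with 10 kb loops only. The cause was not tested. The 6 alternatives on bins of like density or expectation and without the densest bin were chosen after seeing the data. Without 153 to 158 Mb the values were 1.18, 0.35 and 1.68 for density, expectation and hub share. Since the list pools the replicates, none could be left out, and with 9 to 335 contacts per named loop single loops are known far less precisely than medians.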
